A study of Mus musculus with 10 samples.

Results

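The transcripts described here encode 9 cytokine receptor chains of blood progenitors and myeloid cells: Kit, Flt3, Csf1r, Csf2ra, Csf2rb, Csf2rb2, Csf3r, Il3ra and Il6ra. They were chosen by gene symbol, with 1 principal coding transcript per gene. All 9 were found among the 26227 genes of the files, and all 9 were among the 13004 genes tested. RNA was sequenced from cultured mouse ER-Hoxa9-Lys-GFP cells of the C57BL/6 strain. As background, a fusion of the estrogen receptor's ligand domain with Hoxa9 works only with estradiol (E2) and then keeps myeloid progenitors dividing and immature. The study asked when cells taken off E2 can no longer return to the progenitor state once E2 is restored.

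The 10 libraries formed 5 groups of 2. The untreated group kept E2 throughout. In the 24 h, 40 h and 72 h groups E2 was washed out for 24, 40 or 72 h and then returned for 96, 80 or 48 h, and in the 120 h group E2 was absent for 120 h. The add-back groups were therefore collected after E2 had been restored, and a value in them is not a value at 24, 40 or 72 h of withdrawal. All groups carried the same fusion and grew in RPMI with serum and conditioned medium containing SCF (stem cell factor, the Kit ligand), so every group received a Kit ligand from the medium. The labels do not say whether the 2 libraries of a group came from separate cultures, whether the line is 1 clone, or how E2 and SCF were dosed. All p-values therefore reflect the spread between these libraries alone, and that spread may be technical.

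Kit and Flt3 are receptor tyrosine kinases that carry growth and survival signals into early progenitors, from stem cell factor and Flt3 ligand. Csf1r is the related kinase for M-CSF and IL-34 and is the receptor on which monocytes and macrophages depend. The other chains have no kinase of their own and signal through JAK kinases and STAT factors. Csf2ra binds GM-CSF and Il3ra binds IL-3, and each pairs with Csf2rb, the common beta chain that the IL-5 receptor also uses. Csf2rb2 is a mouse beta chain that serves the IL-3 receptor alone. Csf3r binds G-CSF, the main growth factor of neutrophils, and Il6ra binds IL-6 and signals through its partner Il6st (gp130).

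Values are RPKM, reads scaled to transcript length and to the reads of the library, and differences are on the log2(RPKM + 1) scale, where a low transcript's change is understated. The library denominators recovered from the files ran from 173620000 to 204390000 reads. Receptor values rested on many reads, and the fewest behind any receptor value was 1069, for Il6ra in untreated replicate 2. The largest part of the RNA change lay at 120 h, where 10440 of the 13004 genes (80.3%) differed from untreated at an adjusted p under 0.05 by limma. In bulk RNA, fewer cells of a type and less RNA per cell cannot be told apart.

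The promoter sequences below are shown because the receptors moved in opposite directions, and they let their start regions be compared. They are RefSeq sequences of GRCm38.p6, the 250 bases before the gene's start, written 5′ to 3′ on the gene's strand. Promoters of 7 of the 9 receptors were used, and those of Csf1r and Csf2rb were not analysed here. Shown are Flt3, which fell, and the 3 risers whose windows held no more than 11 bases of the gene's own GENCODE exons. Capitals mark matches on either strand to GAGGAA, a core of sites bound by the myeloid factor PU.1 (Spi1), or to TTNNGNAA, a form of the C/EBP site.
Flt3, chr5:147400490-147400739, minus strand: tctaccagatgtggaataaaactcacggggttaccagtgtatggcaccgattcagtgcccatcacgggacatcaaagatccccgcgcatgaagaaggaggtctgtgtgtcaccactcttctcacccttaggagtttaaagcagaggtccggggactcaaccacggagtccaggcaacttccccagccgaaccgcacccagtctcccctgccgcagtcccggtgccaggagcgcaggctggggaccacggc
Csf2ra, chr19:61228419-61228668, minus strand: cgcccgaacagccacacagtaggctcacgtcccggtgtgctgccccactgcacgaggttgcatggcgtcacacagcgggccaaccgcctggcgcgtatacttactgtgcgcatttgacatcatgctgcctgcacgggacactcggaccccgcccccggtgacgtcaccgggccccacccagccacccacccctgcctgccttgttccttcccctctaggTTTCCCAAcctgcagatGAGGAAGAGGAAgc
Csf2rb2, chr15:78305722-78305971, minus strand: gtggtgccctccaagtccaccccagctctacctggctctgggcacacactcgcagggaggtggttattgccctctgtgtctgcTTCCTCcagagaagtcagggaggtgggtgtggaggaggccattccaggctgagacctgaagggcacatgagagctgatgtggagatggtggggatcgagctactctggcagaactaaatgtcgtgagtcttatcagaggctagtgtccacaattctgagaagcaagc
Il6ra, chr3:89913197-89913446, minus strand: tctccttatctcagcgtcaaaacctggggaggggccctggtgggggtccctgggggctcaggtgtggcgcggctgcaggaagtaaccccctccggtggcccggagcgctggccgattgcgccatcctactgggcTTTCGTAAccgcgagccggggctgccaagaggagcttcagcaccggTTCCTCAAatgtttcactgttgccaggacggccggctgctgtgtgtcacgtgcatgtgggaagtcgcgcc
Flt3's window held neither match. Csf2ra held GAGGAA at -14 to -9 and again at -8 to -3, directly before the start, with a C/EBP match at -31 to -24. Csf2rb2 held GAGGAA at -167 to -162, written TTCCTC on the strand shown. Il6ra held a C/EBP match at -116 to -109 and a second at -70 to -63 that overlapped GAGGAA at -70 to -65.

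Among the 7 receptor promoters, GAGGAA was present in 5, those of Kit, Csf2ra, Csf2rb2, Csf3r and Il6ra. The same letters stood in 23.3% of all 32851 promoter windows. The C/EBP letters stood in 3, those of Csf2ra, Il3ra and Il6ra, against 36.8% of all windows. TGTGGT (RUNX), TGACAG (MEIS) and TGATTNAT (HOX with PBX) were in 0 of the 7, against 14.0%, 15.9% and 2.8% of all windows. Kit, which fell, held GAGGAA too, at -223 to -218, so the letters were not limited to receptors that rose. In the windows not shown, 71 bases of Kit's, 109 of Csf3r's and 220 of Il3ra's lay in the gene's own GENCODE exons. The Csf3r GAGGAA at -86 to -81 and the Il3ra C/EBP match at -134 to -127 lay inside those exons. These matches are a description of the letters in these windows.

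Flt3 was the most abundant receptor in untreated cells and fell furthest. The transcript used, with 24 exons, lies on chromosome 5 (GRCm38, 147330741 to 147400489, minus strand). It measured 257 and 250.1 RPKM in the untreated libraries, 232 and 223 in the 24 h libraries and 149 and 191 in the 40 h libraries. It then measured 27.3 and 29.5 RPKM in the 72 h libraries and 1.88 and 2.64 in the 120 h libraries. Every 72 h library lay below every untreated, 24 h and 40 h library, and both 120 h libraries lay below all others.

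At 120 h, Flt3 fell by 6.30 on the log2(RPKM + 1) scale (SE 0.14, limma adjusted p = 1.20e-08), from 254 ± 4.86 to 2.26 ± 0.536 RPKM (SD, n = 2), a 112-fold difference in RPKM. The 72 h group, with 48 h of restored E2, was lower than untreated by a log2 difference of -3.12 (adjusted p = 1.48e-06), 8.94-fold in RPKM. The 40 h group differed by -0.58 on that scale (95% interval -0.91 to -0.26), with an adjusted p of 0.0626 that missed the threshold. By rank of RPKM among the 13004 tested genes, Flt3 stood 279th in untreated cells, 2901st at 72 h and 10131st at 120 h.

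Kit started as the second most abundant receptor and kept most of its level after add-back. Its transcript, with 21 exons, lies on chromosome 5 (75574955 to 75656722, plus strand). It measured 152 and 158 RPKM untreated, 140 and 152 at 24 h, 126 and 150.5 at 40 h and 99.9 and 106 at 72 h. In the 120 h libraries it measured 26.7 and 15.4 RPKM. The 72 h libraries lay below all libraries of the untreated, 24 h and 40 h groups, and the 120 h libraries lay lower still.

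Kit fell by 2.87 on the log2(RPKM + 1) scale at 120 h (SE 0.21, adjusted p = 5.13e-06), to 21.1 ± 7.95 RPKM from 155 ± 4.47, or 7.35-fold. At 72 h its log2 difference from untreated was -0.58 (95% interval -1.07 to -0.09), and the adjusted p of 0.056 missed the threshold. Without the 120 h group in the fit, the adjusted p for Kit at 72 h was 8.82e-04, and Kit was also called without either 120 h library alone (8.66e-04 and 8.60e-04).

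**Figure D1:**
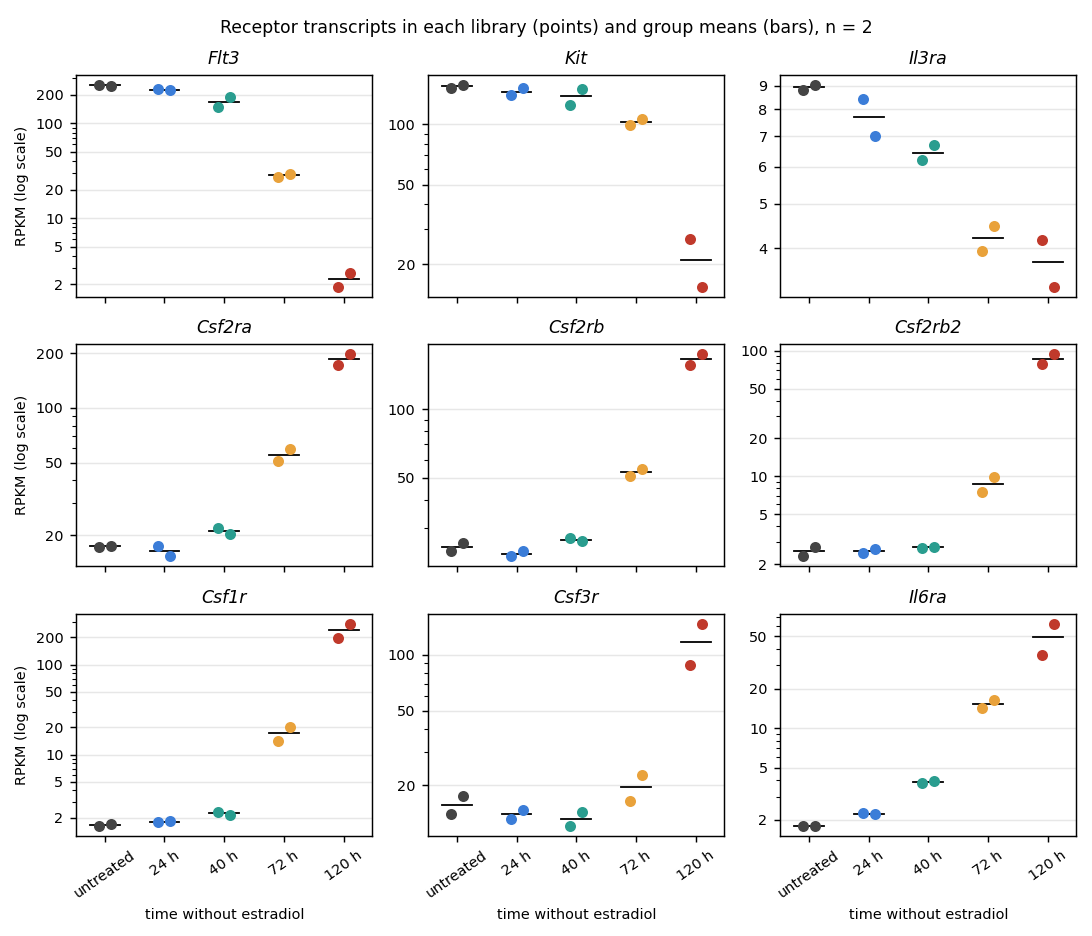
RPKM of the 9 receptor transcripts on log axes with a separate range in each panel, by time without estradiol, where the 24 h, 40 h and 72 h groups then received it again. Points are the 2 libraries of a group and bars their mean; Flt3, Kit and Il3ra descend to 2.26, 21.1 and 3.74 RPKM at 120 h, and the other 6 ascend.

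Il3ra, the IL-3 binding chain, was the third receptor that fell, and most of its difference was present in the 72 h group. The transcript has 12 exons on chromosome 14 (14346275 to 14355490, plus strand). It measured 8.80 and 9.04 RPKM untreated, 8.42 and 6.996 at 24 h and 6.21 and 6.69 at 40 h. It measured 3.94 and 4.47 RPKM at 72 h and 4.17 and 3.30 at 120 h. The 40 h libraries lay below the untreated libraries, and the 72 h libraries lay below the 40 h libraries but overlapped those at 120 h.

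Il3ra differed from untreated by -0.93 on the log2(RPKM + 1) scale at 72 h (SE 0.12, adjusted p = 4.60e-04) and by -1.07 at 120 h (adjusted p = 5.36e-05). The difference between the 120 h and 72 h groups was -0.14 (95% interval -0.42 to 0.14, adjusted p = 0.309). Scaling libraries by the median of their gene ratios turned that last difference to 0.22. Reads on 46 bases (2.9%) of this transcript cannot be assigned between Il3ra and the antisense gene Gm48860, since no source here states whether counting used strand.

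The GM-CSF and IL-3 receptor chains other than Il3ra rose. Csf2ra, the GM-CSF binding chain, has 12 exons on chromosome 19 (61224402 to 61228418, minus strand). It measured 17.2 and 17.5 RPKM untreated, 17.5 and 15.3 at 24 h, 21.8 and 20.4 at 40 h, 50.9 and 59.2 at 72 h and 172 and 197 at 120 h. The 40 h libraries lay above the untreated libraries, and the 72 h and 120 h libraries stepped up without overlap. Csf2ra was higher than untreated by 1.61 on the log2(RPKM + 1) scale at 72 h (SE 0.11, adjusted p = 1.23e-05) and by 3.34 at 120 h (adjusted p = 5.84e-08). In RPKM these were 3.17-fold and 10.6-fold.

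Csf2rb, the shared beta chain, was the only one of the 3 chains above 20 RPKM in every untreated library. It has 14 exons on chromosome 15 (78325990 to 78351000, plus strand). It measured 23.9 and 25.9 RPKM untreated, 22.5 and 23.8 at 24 h, 27.0 and 26.2 at 40 h, 50.9 and 54.8 at 72 h and 157 and 175 at 120 h. The 24 h libraries lay just below the untreated ones and the 40 h libraries just above, and the 72 h and 120 h libraries lay above all of these. The log2(RPKM + 1) difference from untreated was 1.06 at 72 h (SE 0.09, adjusted p = 3.37e-05) and 2.69 at 120 h (adjusted p = 5.38e-08).

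Csf2rb2, the IL-3-restricted beta chain, began near the bottom of the receptor range and made the larger rise. Its 14-exon transcript lies beside Csf2rb on chromosome 15 (78282507 to 78305721, minus strand). It measured 2.30 and 2.75 RPKM untreated, 2.44 and 2.61 at 24 h, 2.69 and 2.73 at 40 h, 7.52 and 9.86 at 72 h and 78.8 and 93.9 at 120 h. The 24 h and 40 h values lay inside the range of the untreated libraries, and both later groups stood apart. The log2(RPKM + 1) difference was 1.45 at 72 h (SE 0.14, adjusted p = 7.67e-05) and 4.63 at 120 h (adjusted p = 3.63e-08), which was 34.2-fold in RPKM.

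Csf2rb and Csf2rb2 are near-identical copies over part of their length. Of the 50-base windows of the Csf2rb transcript, 892 of 4715 (18.9%) occur unchanged in Csf2rb2, so reads there can count for either gene and each value holds some uncertainty from the other. The ratio of Csf2rb to Csf2rb2 RPKM was 9.39 to 10.4 in the untreated libraries, 9.58 to 10.0 at 40 h, 5.56 to 6.76 at 72 h and 1.86 to 1.99 at 120 h. The ratio thus dropped without overlap at 72 h and again at 120 h. The part of shared reads in this ratio was not tested.

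Csf1r rose furthest of the 9. The principal transcript, with 21 exons, lies on chromosome 18 (61105852 to 61132149, plus strand). It measured 1.62 and 1.70 RPKM untreated, 1.78 and 1.83 at 24 h, 2.31 and 2.13 at 40 h, 14.2 and 20.2 at 72 h and 199 and 285 at 120 h. Both 24 h libraries lay slightly above both untreated libraries, the 40 h libraries above those, and the 72 h and 120 h libraries far above. At 120 h the rise was 6.49 on the log2(RPKM + 1) scale (SE 0.19, adjusted p = 3.53e-08), 146-fold in RPKM, and at 72 h it was 2.75 (adjusted p = 1.41e-05), 10.4-fold. Csf1r ranked 11122nd of 13004 by untreated RPKM and 273rd at 120 h.

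The low untreated value of Csf1r has a second possible source of reads. Of its 4701 bases, 873 (18.6%) overlap exons of Hmgxb3 on the opposite strand, which measured 6.89 and 7.65 RPKM untreated and 5.62 and 5.36 at 120 h. A shorter Csf1r transcript of 3870 bases shares 0 bases with Hmgxb3 and was examined after the values were seen. It measured 0.637 and 0.431 RPKM untreated, 0.532 and 0.659 at 24 h, 1.25 and 1.05 at 40 h, 15.4 and 22.8 at 72 h and 241 and 345 at 120 h. On this transcript the 24 h libraries overlapped the untreated libraries, and the 40 h libraries lay above both. The shorter transcript was below the longer in untreated cells, with a ratio of 0.253 to 0.394, and above it at 120 h, with a ratio of 1.21 in both libraries. On the shorter transcript the log2(RPKM + 1) rise was 3.69 at 72 h (adjusted p = 4.69e-06) and 7.56 at 120 h (adjusted p = 2.69e-08).

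**Figure D2:**
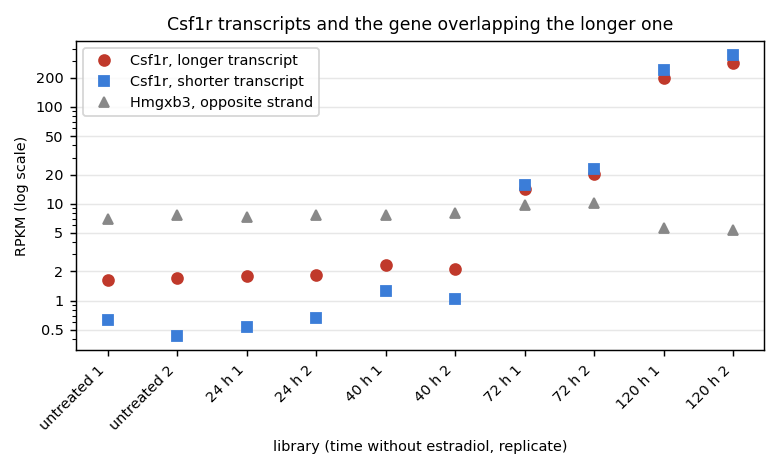
RPKM on a log axis of the longer and shorter Csf1r transcripts and of Hmgxb3 in each of the 10 libraries, labelled by time without estradiol and replicate. The shorter transcript starts at 0.637 and 0.431 and passes the longer one at 72 h, while Hmgxb3 stays between 5.36 and 10.1.

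Csf3r, the G-CSF receptor, was the only riser not called against untreated before 120 h. Its 17-exon transcript lies on chromosome 4 (126024550 to 126044440, plus strand). It measured 14.1 and 17.5 RPKM untreated, 13.2 and 14.8 at 24 h, 12.1 and 14.4 at 40 h, 16.5 and 22.7 at 72 h and 88.0 and 146 at 120 h. The ranges overlapped in every group up to 72 h except that the 72 h libraries lay above the 24 h and 40 h libraries. The 72 h difference from untreated was 0.29 on the log2(RPKM + 1) scale (95% interval -0.27 to 0.84, adjusted p = 0.367). At 120 h it rose by 2.78 (SE 0.24, adjusted p = 1.26e-05), 7.42-fold in RPKM, to 117 ± 41.3 RPKM (SD, n = 2). Against the 40 h group the 72 h difference was 0.52 (adjusted p = 0.152), and it was called without the 120 h group in the fit (0.0296) or without either of its libraries (0.0294 and 0.0293).

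Il6ra, the IL-6 binding chain, rose in steps. It has 10 exons on chromosome 3 (89869324 to 89913162, minus strand). It measured 1.80 and 1.81 RPKM untreated, 2.24 and 2.20 at 24 h, 3.80 and 3.96 at 40 h, 14.1 and 16.3 at 72 h and 35.9 and 62.3 at 120 h. Each group lay above the one before it without overlap. The log2(RPKM + 1) difference from untreated was 0.80 at 40 h (95% interval 0.31 to 1.28, adjusted p = 0.0809), 2.53 at 72 h (adjusted p = 4.23e-05) and 4.11 at 120 h (adjusted p = 6.94e-07). The antisense gene Gm42809 overlaps 208 of its bases (6.2%).

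Across the 9 receptors, the 120 h group differed from untreated in all 9 by limma, with 6 higher and 3 lower. Of all genes, 27.5% were called higher and 52.7% lower, and the median log2(RPKM + 1) difference was -0.36 against 2.78 for the receptors. Scaling by median ratios split all genes into 5125 higher and 5016 lower, in place of 3582 and 6858, and left the receptors at 6 and 3. At 72 h, 5 receptors were higher, 2 lower and Kit and Csf3r were not called, against a background of 43.9% of genes called (21.6% higher and 22.3% lower). The receptors are 9 genes picked by family, and the call shares of all genes are given only for scale.

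In the 24 h group, with 96 h of restored E2, 0 of 9 receptors and 0% of all genes were called against untreated by limma, and voom on recovered reads called 0 as well. At an unadjusted p under 0.05 there were 0 receptors and 365 genes. The intervals give a bound on what could have been missed under a spread pooled over all 5 groups, the 120 h libraries included. They do not measure the spread of the 24 h and untreated libraries alone. For Flt3 the log2(RPKM + 1) difference was -0.16 (95% interval -0.48 to 0.17), for Kit -0.09 (-0.58 to 0.40) and for Csf3r -0.16 (-0.71 to 0.40). In the 40 h group, 0 of 9 receptors were called by limma or voom against 4.28% of all genes (0.93% higher and 3.35% lower), and 4 receptors (Flt3, Csf2ra, Il3ra and Il6ra) had an unadjusted p under 0.05. Without the 120 h group in the fit, 3 were called at 40 h, with adjusted p of 0.013 for Flt3, 0.0291 for Il3ra and 0.00196 for Il6ra.

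The 72 h group differed from the 40 h group in 7 receptors, 5 higher and 2 lower, where 27.7% of genes were called (13.9% higher and 13.8% lower). The largest were Flt3 at -2.53 on the log2(RPKM + 1) scale (adjusted p = 9.06e-06) and Csf1r at 2.48 (adjusted p = 4.63e-05). Il3ra was called at -0.52 (adjusted p = 0.0141), but the call was lost without either 40 h library (adjusted p = 0.0554 and 0.0898) and without 72 h replicate 1 (0.0759). Kit, at -0.41 (adjusted p = 0.187), was called without the 120 h group in the fit (0.00731), without either of its libraries (0.00717 and 0.00714), with array weights (0.029) and in a fit of those 2 groups alone (0.0289). The 120 h group differed from the 72 h group in 8 receptors, 6 higher and 2 lower, where 77.4% of genes were called (26.4% higher and 51% lower). Il3ra was the exception. The 40 h and 24 h groups were not told apart at any receptor by limma or voom (0 of 9 called, 3 at an unadjusted p under 0.05, 0.285% of all genes called).

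**Figure D3:**
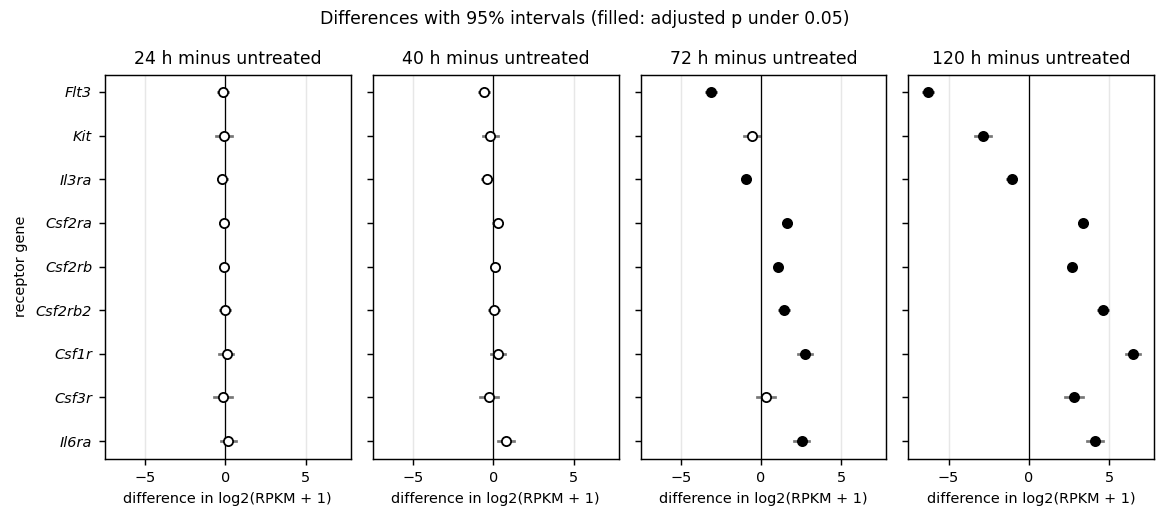
Difference in log2(RPKM + 1) from untreated for each receptor in the 24 h, 40 h, 72 h and 120 h groups, with 95% intervals from limma; filled points have an adjusted p under 0.05. Filled points number 0, 0, 7 and 9 in the 4 panels.

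The receptors differed in how much of their 120 h difference was present in the 72 h group, taken from group means on the log2(RPKM + 1) scale. Il3ra had 86.9% of it, Il6ra 61.5%, Flt3 49.5%, Csf2ra 48.2%, Csf1r 42.4%, Csf2rb 39.3%, Csf2rb2 31.3%, Kit 20.3% and Csf3r 10.3%. Neighbours in that order did not all separate. By library, the 72 h shares of Csf2ra (45 and 51.4%) overlapped those of Flt3 (50.4 and 48.6%) and those of Csf1r (38.7 and 46.1%). Flt3 lay above Csf1r on its longer transcript, whose untreated value may include reads of Hmgxb3. On the shorter Csf1r transcript the mean share was 48.8%, close to that of Flt3. With a pseudocount of 0.1 it was 55.6%, above Flt3 at 46.7%. Csf1r overlapped Csf2rb (37.4 and 41.3%). Kit (21.9 and 18.8%) lay below Csf2rb2 (27.6 and 35.1%), and Csf3r (2.5 and 18.1%) lay below both. The order of Flt3, Csf2ra and Csf1r changed with a smaller pseudocount, and median-ratio scaling put Il3ra at 130.6%. The shares were not tested against each other.

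**Figure D4:**
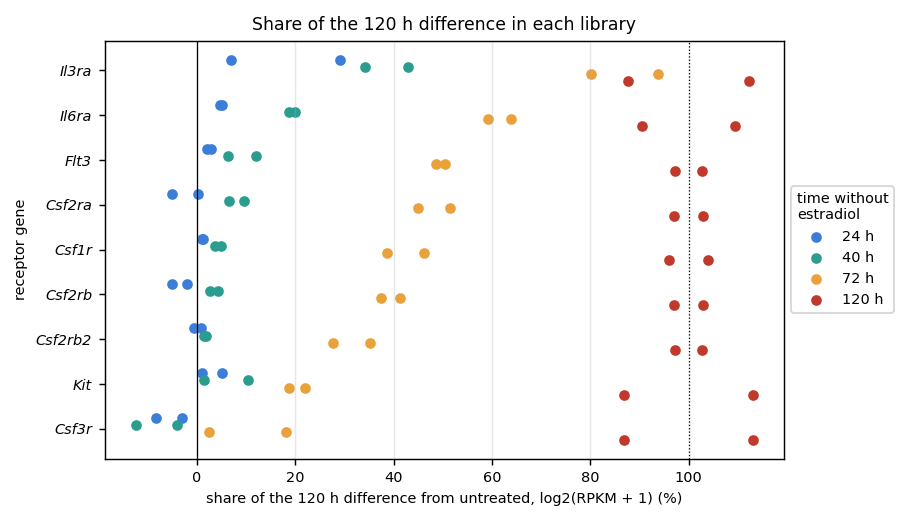
Share of each receptor's 120 h difference from the untreated mean, in percent on the log2(RPKM + 1) scale, for each library by time without estradiol. The 72 h points run from 93.8 and 80.1% for Il3ra down to 2.5 and 18.1% for Csf3r, and the 120 h points scatter around 100% because they define it.

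Ratios of RPKM within a library compare pairs of receptors free of library scaling. Flt3 to Kit was 1.58 to 1.69 untreated, 1.19 to 1.27 at 40 h, 0.273 to 0.278 at 72 h and 0.0706 to 0.171 at 120 h. The order of these 2 transcripts was thus inverted in both 72 h libraries. Csf1r to Csf3r was 0.0975 to 0.114 untreated, 0.858 to 0.89 at 72 h and 1.94 to 2.26 at 120 h. The Csf1r transcript thus exceeded the Csf3r transcript in RPKM in both 120 h libraries. This ratio uses the longer Csf1r transcript, whose untreated value may include reads of Hmgxb3. Flt3 and Kit made up 84.3 to 85.4% of the summed RPKM of the 9 receptors untreated, 42 to 44.6% at 72 h and 1.8 to 3.7% at 120 h. That sum was 478 to 484 RPKM untreated, 285 to 323 at 72 h and 764 to 981 at 120 h.

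**Figure D5:**
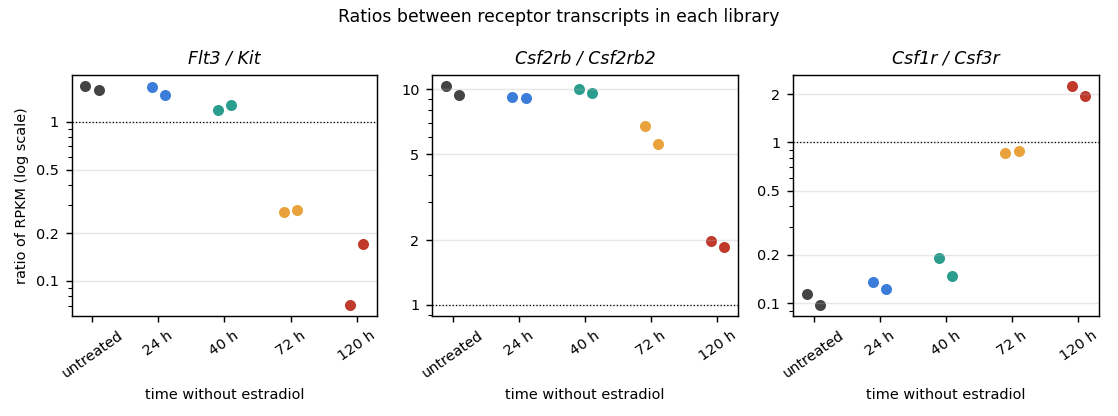
Ratios of RPKM between pairs of receptors in each library on log axes, by time without estradiol: Flt3 to Kit, Csf2rb to Csf2rb2 and Csf1r to Csf3r. The dotted line marks equal RPKM; Flt3 to Kit lies below it from 72 h, and Csf1r to Csf3r lies above it at 120 h alone.

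The genes whose pattern lay closest to each receptor, by root mean square distance of log2(RPKM + 1) differences from untreated over the 8 other libraries, were named by rule, 3 for each. Closest to Csf1r were Clec7a (distance 0.146), a receptor for fungal glucans on phagocytes, Hcar2 and Ear2. Closest to Csf2rb2 was Itgb2 (0.105), the beta chain of leukocyte integrins, at 16.8 RPKM untreated and 501 at 120 h. Closest to Csf2ra was Cebpd (0.133), a C/EBP transcription factor. Closest to Csf3r were 9930111J21Rik1, Pbxip1 and Maf, and to Il6ra were Gas7, Ccdc125 and Clec5a. For the receptors that fell, the nearest were Mzb1 (0.352) and Angpt1 (0.423) for Flt3, Fam216a (0.127) for Kit and Vdr (0.088), the vitamin D receptor, for Il3ra.

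Of 10 ligands for these receptors, Il3 was not analysed here, and 3 of the other 9 passed the filter for testing. Csf1, which encodes M-CSF, measured 2.38 and 2.51 RPKM untreated, 5.60 and 9.26 at 72 h and 88.1 and 87.0 at 120 h. It rose by 1.26 at 72 h (adjusted p = 8.48e-04) and by 4.68 at 120 h (adjusted p = 1.52e-07) on the log2(RPKM + 1) scale, the direction of its receptor. Flt3l measured 5.07 and 4.95 RPKM untreated, 0.889 and 1.61 at 72 h and 3.42 and 3.89 at 120 h. On the log2(RPKM + 1) scale it fell by 1.44 at 72 h (adjusted p = 1.40e-04), and was higher at 120 h than at 72 h by 1.07 (adjusted p = 2.38e-04). Its 120 h difference from untreated was -0.37 (limma adjusted p = 0.0468), called lower. Ligands called lower at 120 h numbered 2, and 1 under median-ratio scaling or quantile normalization. Il6 measured 5.12 and 5.61 RPKM untreated, 0.394 and 0.701 at 72 h and 1.17 and 1.51 at 120 h. It fell by 2.05 at 72 h (adjusted p = 9.58e-05) and by 1.45 at 120 h (adjusted p = 1.85e-04) on the log2 scale. The Kit ligand gene Kitl did not pass 0.018 RPKM in any library.

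Transcription factors associated with these promoters (17 of 17 tested) gave 7 higher, 4 lower and 6 not called at 72 h, and 9 higher, 7 lower and 1 not called at 120 h. Of all genes, 43.9% were called at 72 h (21.6% higher, 22.3% lower) and 80.3% at 120 h (27.5% higher, 52.7% lower). The list's median log2(RPKM + 1) difference at 120 h was 0.74, against -0.36 over all genes. Cebpe, a granulocyte C/EBP factor, rose by 0.88 at 40 h (adjusted p = 0.0444), 2.28 at 72 h and 3.81 at 120 h on the log2(RPKM + 1) scale. Meis1, a cofactor of Hoxa9, differed by -2.41 at 72 h and Spi1, which encodes PU.1, by 0.79. At 120 h Egr2 and Egr1 rose by 4.11 and 3.31, Myb fell by 2.79 and Lmo2, at 0.13, was not called.

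Adaptors and kinases next to the receptors (25 of 26 tested) gave 6 higher, 8 lower and 11 not called at 72 h, where 43.9% of all genes were called. At 120 h, where 80.3% of all genes were called, there were 16 higher, 6 lower and 3 not called (18 and 3 called under median-ratio scaling). Fyn, a Src-family kinase, differed by -2.34 at 72 h and Fes by 1.31, and at 120 h Pik3r5, Fes and Lyn rose by 4.20, 2.80 and 2.33. Inhibitors and turnover genes (20 of 22 tested) gave 4 higher, 8 lower and 8 not called at 72 h. At 120 h there were 14 higher, 1 lower and 5 not called, where 27.5% of all genes were higher and 52.7% lower, with Ptprj at 3.65 and Cbl, a ubiquitin ligase that marks these receptors for degradation, at 2.37. Cish, an inhibitor of cytokine signalling, rose by 1.44.

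Related receptors and shared subunits (8 of 11 tested) gave 2 higher, 4 lower and 2 not called at 72 h, and 4 higher, 2 lower and 2 not called at 120 h (5 and 1 under median-ratio scaling). The shares called over all genes were 43.9% at 72 h and 80.3% at 120 h. Il4ra, Ifngr2 and Il1r1 rose by 1.92, 2.15 and 1.44 at 120 h. Il6st, the partner of Il6ra, was not called at 120 h, with a log2 difference of -0.34, while Il6ra rose. Il2rg, at 0.01, was not called at 120 h either.

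Markers of cell types that could use these receptors also differed between groups, not all in the direction of the receptors, and their part in the receptor results was not tested. Summed RPKM of 8 neutrophil markers was 2.97 to 4.09 untreated, 375 to 612 at 72 h and 20000 to 20500 at 120 h. For 8 monocyte and macrophage markers the sums were 119 to 121, 656 to 727 and 1110 to 1230. Within that list Ly6c2 made up 568 and 608 RPKM at 72 h, while Ccr2 went from 113 and 111 untreated to 31.6 and 38.6 at 120 h. For 8 progenitor markers they were 3600 to 4000, 6510 to 6750 and 1120 to 1700, and the members went different ways. The granule gene Mpo carried the 72 h sum, at 2042 and 2433 RPKM untreated, 4334 and 4137 at 72 h and 463 and 178 at 120 h. The stem and progenitor antigen Cd34 measured 869 and 830.0 RPKM untreated, 271 and 255 at 72 h and 37.6 and 27.5 at 120 h, whereas Spi1 was highest at 120 h, at 185 and 175. The sums of 9 mast cell and basophil markers, 191 to 195 untreated, were 56 to 61.3 at 72 h and 31.2 to 41.5 at 120 h, with Fcer1a at 0 in 8 libraries. Their members also went different ways. Cpa3 measured 128 and 123 RPKM untreated and 13.3 and 9.1 at 120 h. Hdc measured 2.17 and 2.91 RPKM untreated and 18.8 and 14.2 at 120 h. The 7 B lineage markers, 216 to 238 untreated, summed to 24 to 26.4 at 72 h and 33.3 to 34.9 at 120 h. Among them Pax5 did not pass 0.112 RPKM. Cd79b carried the 120 h sum, at 41.3 and 41.1 RPKM untreated, 18.8 and 17.9 at 72 h and 30.7 and 31.9 at 120 h. Igll1 carried the untreated sum, at 163 and 141 RPKM, and measured 4.47 and 3.34 at 72 h and 0.49 and 0.272 at 120 h. The 7 dendritic markers reached 267 to 430 at 120 h, carried by Cd74, with Zbtb46 at or below 0.017 RPKM. For the 8 erythroid and megakaryocyte markers the sums were 24 to 30.3 untreated, 8.2 to 11.3 at 72 h and 21.3 to 22.7 at 120 h. Pf4 carried the 120 h sum, at 1.52 and 2.30 RPKM untreated and 12.9 and 15 at 120 h. Itga2b went from 9.14 and 14.7 RPKM untreated to 4.36 and 3.24 at 120 h, and Gp9 from 11.2 in both to 4.35 and 2.79.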

How the data were processed

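The authors deposited 1 table of RPKM per library, listing 79535 Ensembl transcripts, per the file headers. The submitters' processing notes name STAR and GRCm38. The counting program, annotation release, strand use and filter were not given in the sources used here. Of the identifiers, 77720 (97.7%) matched GENCODE M21 after version suffixes were dropped, and 1815, with 2.64 to 3.24% of summed RPKM, did not. Each gene was represented by 1 transcript, since a read may count for several isoforms. It was the principal coding one where the gene had any. This gave 26227 genes, 17251 of them with a coding transcript, and the rest stayed in as noncoding.

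From the deposited RPKM, log2(RPKM + 1) was computed. A gene entered the test if 2 or more libraries reached 1 RPKM, which left 13004 genes. They were fitted by limma 3.58.1 (R 4.3.3) over all 10 libraries, with group as the only term (5 residual and 3.04 prior degrees of freedom), in 7 comparisons with Benjamini-Hochberg adjustment over all genes at 0.05. Whole reads were recovered from transcripts of 150 to 400 bases (100% of values whole within 0.1 reads), and the limma voom test on them was an alternative. The code was tested on simulated data. In none of the 5 groups did the 2 libraries agree within sampling noise, and the 120 h pair differed most. On recovered reads, chi-square per degree of freedom was 45.8 untreated, 42.6 at 24 h, 60.8 at 40 h, 124 at 72 h and 533 at 120 h. The correlation of log2(RPKM + 1) was 0.9974 for the untreated pair and 0.9788 for the 120 h pair. The main fit nevertheless used 1 spread per gene, shared by all groups.

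The receptors, lists and alternatives were chosen with earlier results of these data known. Named list genes were those called with the largest differences, plus those not called that had the highest mean RPKM. Some genes that this rule names are not reported here. Library titles carry replicate numbers 1 and 2, but nothing says that equal numbers share a culture, so they were not paired. Promoters were those of RefSeq, GRCm38.p6.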

Additional observations from a re-analysis of the deposited data

How the results depend on the processing

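Receptor calls at 72 h and 120 h against untreated, and between 120 h, 72 h and 40 h, stayed within 1.5 times of those reported in number under every alternative run. The calls at 40 h did not. Against untreated, 0 receptors became 1 with a pseudocount of 0.1 (Il6ra, adjusted p = 0.045), 4 when only the groups compared entered, 3 without the 120 h group and 4 with array weights, and 0 to 3 when single libraries were left out. Over all genes at 40 h, the pseudocount of 0.1 called 417 and only the groups compared 1988. The fit without the 120 h group called 1797 and array weights 2859. Treating replicate numbers as a block called 1 receptor at 40 h (Flt3, adjusted p = 0.0421) and 693 of all genes. The block also called Csf3r between 72 h and 40 h (adjusted p = 0.0227). Equal numbers deviated together with correlations of 0.03 to 0.64, above 0.1 in 8 of 10 group pairs, and were not taken as pairs. Between 40 h and 24 h, 0 became 1 with only those groups, 1 without the 120 h group, 3 with array weights and 0 to 1 with single libraries left out. Over all genes between 40 h and 24 h, only those groups called 160, the fit without the 120 h group 238 and array weights 493. The cause of these shifts was not tested.

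Differences near 0 changed sign when 1 library was left out. Csf2ra at 24 h ranged from -0.17 to 0.01. Csf2rb2 ranged from -0.09 to 0.09 at 24 h and from -0.02 to 0.17 at 40 h. Between 40 h and 24 h, Csf3r ranged from -0.19 to 0.04 and Kit from -0.21 to 0.05. Il3ra between 120 h and 72 h became 0.22 with median-ratio scaling and 0.05 with quantile normalization. Median-ratio scaling moved the median difference of all genes at 120 h from -0.36 to 0. Among the lists, adaptors at 40 h went from 2 calls to 1 with median ratios and 0 with quantiles, transcription factors at 40 h from 2 to 1 with each, and related receptors between 120 h and 72 h from 4 to 7 with median ratios. Calls over all genes ranged from 0 to 34 at 24 h, 41 to 2859 at 40 h, 0 to 493 between 40 h and 24 h, 1977 to 6082 between 72 h and 40 h and 3583 to 7877 at 72 h. With 2 libraries a group, some intervals are wide, and their width did not follow the level. For the 24 h group against untreated, the SE was 0.24 for Csf3r and 0.21 for Kit, at 15.8 and 155 RPKM untreated. It was 0.14 for Csf2rb2, at 2.53 RPKM untreated.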

Other observations

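Flt3 has a processed transcript listed beside its coding one. The ratio of its RPKM to that of the coding transcript was 0.287 to 0.288 in the untreated libraries, 0.292 to 0.307 at 40 h, 0.335 to 0.344 at 72 h and 0.344 to 0.346 at 120 h, while the coding transcript fell 112-fold. Neither the difference between groups nor the reads the 2 transcripts share were tested.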
